A study of Homo sapiens with 24 samples.

Results

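The effect of the KEAP1 guide sgKEAP1-1 on the RNA of HepG2 cells, with TFEB and TFE3 left in place, was measured by comparing the 4 libraries of sgKEAP1-1 cells given the non-targeting siRNA pool siNC with the 4 libraries of sgCtrl cells given siNC. These are 8 of the 24 libraries of the series, and they were chosen by their labels, with every gene that had an Entrez ID, 11927 features in all, considered. HepG2 is an established human liver cancer line that makes many proteins of the hepatocyte. In both groups the cells carried a lentiviral LentiCRISPRv2 construct with Cas9 and a guide RNA, were selected with puromycin, and were reverse transfected with siNC. The sgCtrl guide targets the AAVS1 safe-harbour site and the sgKEAP1-1 guide targets KEAP1. No cloning step is described for these lines, and the share of cells with a disrupted KEAP1 gene is not given in the sources used here. RNA was extracted 72 h after transfection and read with QuantSeq, a method in which each read falls near the 3′ end of a polyadenylated transcript. The other 16 libraries hold the second KEAP1 guide, sgKEAP1-2, and all 3 guides with pooled siRNAs against both TFEB and TFE3 (siTFEB/siTFE3), and are used here for the estimate of spread between libraries and to set the sgKEAP1-1 effect beside other contrasts.

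KEAP1 is the substrate adaptor of a cullin ubiquitin ligase and holds NRF2, the transcription factor encoded by NFE2L2, so that NRF2 is degraded and kept low. When electrophiles modify cysteines of KEAP1, or when KEAP1 is lost, NRF2 builds up, pairs with small MAF proteins and binds antioxidant response elements. Its known targets make and recycle glutathione and thioredoxin, supply NADPH, reduce carbonyls and quinones, and conjugate and export foreign compounds, a set of functions that the liver carries out at a high rate. KEAP1 is mutated in a share of liver cancers, and NRF2 is also known to redirect glucose carbon and to oppose lipid synthesis genes in liver.

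The 8 libraries held 3575348 to 4402478 reads, with a median of 4097177. Levels below are in CPM, read counts scaled to a common library size with TMM factors, and are given for replicates 1, 2, 3 and 4 in that order. A log2 fold change is the limma-voom estimate for sgKEAP1-1 against sgCtrl, and a gene is called higher or lower where its p-value was under 0.05 after Benjamini-Hochberg adjustment across the 11152 genes tested. The labels do not say whether the replicates were separate cultures, so the p-values measure only the spread between these samples, which may be technical. The names of the columns carry a prefix that is shared by the same-numbered libraries of all 6 groups and differs between numbers, and what it marks is not given in the sources used here. Pairs of sgCtrl libraries had a Pearson's r of 0.969 to 0.977 in log2 CPM across genes, which are not independent of each other. Among sgKEAP1-1 replicates 2 to 4 r was 0.976 to 0.979, and replicate 1 correlated with them at 0.938 to 0.955. The first principal component of the 8 libraries held 36.2% of the variance and separated the groups. The second held 25.1% and set sgKEAP1-1 replicate 1, at 0.82, apart from the other 7 libraries, at -0.41 to 0.11. All 13 liver markers of the list used to check the cell type were in the table, with a summed level of 35100 to 49199 CPM in sgCtrl and 27162 to 30744 CPM in sgKEAP1-1 libraries. None of the 8 endothelial markers was in the table, and the 4 fibroblast markers in it summed to 122 to 127 CPM in sgCtrl and 83.5 to 93.5 CPM in sgKEAP1-1 libraries.

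The KEAP1 guide moved a large number of genes. Of the 11152 genes tested, 670 were called higher with sgKEAP1-1, which is 6.01%, and 548 were called lower, which is 4.91%. At an unadjusted p under 0.05, 2587 genes passed. The changes upward were the larger ones. The median log2 fold change was 0.89 over the genes called higher, -0.69 over those called lower, and -0.02 over all genes tested. A log2 fold change of at least 1 was reached by 298 genes upward and 131 downward, and one of at least 2 by 129 upward and 19 downward. In the 2788 genes with the lowest mean CPM, 154 were called higher and 67 lower, against 231 and 201 in the 2788 with the highest. All 4 sgKEAP1-1 libraries lay above every sgCtrl library for 576 of the genes called higher, and below every one for 435 of those called lower. Over all genes tested, called or not, 855 (7.67%) were separate upward and 722 (6.47%) downward.

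**Figure D1:**
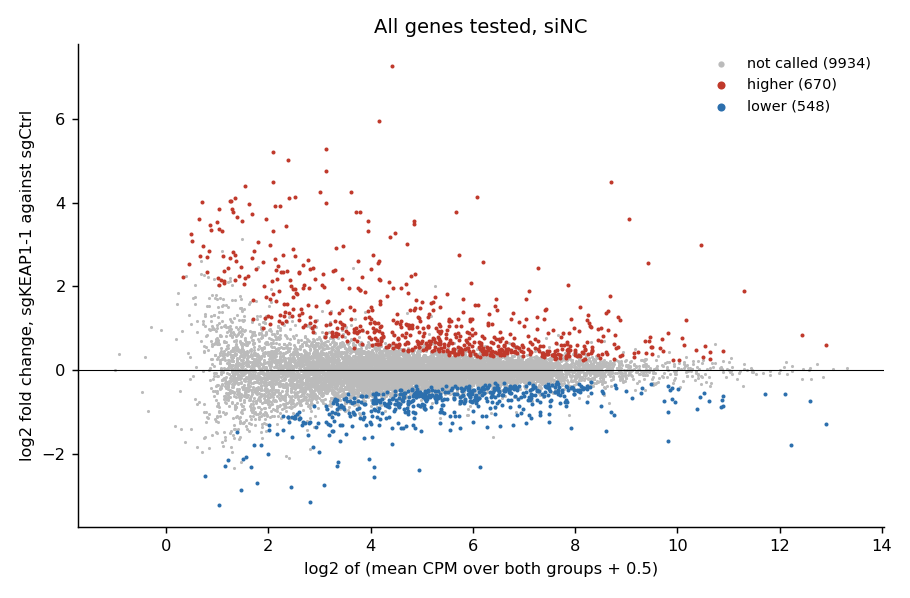
Each point is 1 of the 11152 genes tested, with the log2 of its mean CPM over both groups plus 0.5 on the horizontal axis and its log2 fold change, sgKEAP1-1 against sgCtrl, on the vertical axis. The 670 genes called higher reach further from 0 than the 548 called lower, and they are spread over the whole range of levels.

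Single libraries moved these counts by less than 1.5 times. Without sgKEAP1-1 replicate 1 there were 730 genes called higher and 554 lower, and without sgCtrl replicate 3, the library whose absence cost the most calls, there were 515 and 380. Of the 670 genes called higher, sgKEAP1-1 replicate 1 was the lowest of its group in 259 (38.7%) and the highest in 208 (31.0%). Over all genes tested it was the lowest in 36.4% and the highest in 35.7%, so it lay at both ends in general. sgCtrl replicate 2 carried more of some strongly raised genes than the other controls did. It was the highest sgCtrl library for 67 of the 129 genes called higher by a log2 fold change of at least 2, or 51.9%, and its median over those genes was 0.48 above the other 3 sgCtrl libraries on the log2 scale. How often this library was the highest control over all genes tested was not counted. Without it there were 592 genes called higher and 427 lower.

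The targeted gene itself was lower. KEAP1 (Entrez ID 9817), on the minus strand of GRCh37 at chr19:10596801-10614234, was at 85.3, 83.03, 77.5 and 93.6 CPM in the sgCtrl libraries and 48.1, 59.2, 48.8 and 59.1 CPM in the sgKEAP1-1 libraries. The groups did not overlap, and the log2 fold change was -0.66 (adjusted p 0.000102, SE 0.11), with KEAP1 RNA still present in every sgKEAP1-1 library. In bulk RNA, fewer cells with the transcript and less of it per cell cannot be told apart. Of the 47 other tested genes within 1 Mb of KEAP1 on GRCh37, 5 were called higher, namely AP1M2, CDC37, SMARCA4, TMEM205 and UBL5, and 0 were called lower, beside 6.01% higher and 4.91% lower over all genes, with a median log2 fold change of 0.03. The last 4 of these names were chosen after their values were seen.

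NFE2L2, which encodes NRF2, did not pass the test at the RNA level. Its libraries were at 256, 191, 248 and 199 CPM with sgCtrl and 143, 198, 166 and 205 CPM with sgKEAP1-1, with overlapping ranges and a log2 fold change of -0.33 (adjusted p 0.155, SE 0.14). The list of the KEAP1-NRF2 switch holds the ligase, its regulators and the MAF and BACH partners of NRF2. Among its 13 tested genes, 2 were called higher (15.4%, beside 6.01% over all genes) and 1, KEAP1, lower (7.69%, beside 4.91%). SQSTM1 encodes p62, an autophagy receptor that binds KEAP1 and is itself an NRF2 target, and it went from 217, 301, 277 and 353 CPM to 644, 584, 585 and 796 CPM. Its groups were well apart, with a log2 fold change of 1.19 (adjusted p 8.71e-06, SE 0.16). BACH1 encodes a heme-binding repressor that competes with NRF2 for the same DNA elements. Its reads shared an identical count with the ID of GRIK1-AS2 in every library and were kept as 1 feature, at 9.65, 10.97, 15.8 and 14.4 CPM with sgCtrl and 17.9, 36.7, 31.2 and 32.1 CPM with sgKEAP1-1. Every sgKEAP1-1 library was above every sgCtrl library, with a log2 fold change of 1.19 (adjusted p 0.00048, SE 0.22).

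Known NRF2 target genes rose nearly as a block. Of 44 genes on the list, 39 were tested, 32 of them were called higher (82.1%, beside 6.01% over all genes) and 0 lower, with a median log2 fold change of 1.13. Like the other lists, this one was set with earlier results of these data known, so its share is a description. Without sgKEAP1-1 replicate 1, 36 were called higher. Among the 32, sgKEAP1-1 replicate 1 was the lowest of its group for 9 (28.1%) and the highest for 13 (40.6%). Over all genes tested these shares were 36.4% and 35.7%. The 16 tested aldo-keto, carbonyl and quinone reductases, which overlap with that list, had 8 members higher and 0 lower, with a median of 0.51.

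PTGR1, which reduces alkenals and leukotriene B4, had the largest change of the reductases. It was at 42.4, 70.8, 25.8 and 18.2 CPM in the sgCtrl libraries and 613, 883, 790.1 and 871 CPM in the sgKEAP1-1 libraries, a log2 fold change of 4.50 (adjusted p 4.14e-10, SE 0.33). The sgCtrl libraries varied among themselves, with replicate 2 the highest, but none came near the sgKEAP1-1 range. AKR1B10, an aldo-keto reductase of retinals and lipid aldehydes that is often raised in liver cancer, was at 62.5, 109.5, 57.1 and 68.2 CPM and 356, 1227, 1059 and 1328 CPM. Here sgKEAP1-1 replicate 1 was much lower than its 3 companions yet above all sgCtrl libraries, and the log2 fold change was 3.62 (adjusted p 3.48e-08, SE 0.34).

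The AKR1C enzymes reduce steroid ketones and quinones, and their genes are near copies of each other, so the division of reads between them is uncertain. AKR1C2 rose from 366, 429.6, 273 and 233 CPM to 2852, 2379.7, 2615 and 2183 CPM, with a log2 fold change of 2.98 (adjusted p 1.47e-10, SE 0.20). AKR1C1, the most abundant of them, rose from 862, 1275, 1043 and 1137 CPM to 3926, 4133, 3914 and 3959 CPM, a log2 fold change of 1.90 (adjusted p 1.47e-10, SE 0.13), and AKR1C3, chosen after its values were seen, had one of 1.41 (adjusted p 2.80e-09, SE 0.12). All 4 libraries of sgKEAP1-1 lay above all 4 of sgCtrl for each of them. NQO1, the quinone reductase used most often as an NRF2 readout, was already high in sgCtrl cells at 693, 752, 686 and 669.6 CPM. It reached 1498, 1618, 1619.9 and 1637 CPM with sgKEAP1-1, and both groups were tight, with a log2 fold change of 1.19 (adjusted p 1.47e-10, SE 0.08).

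**Figure D2:**
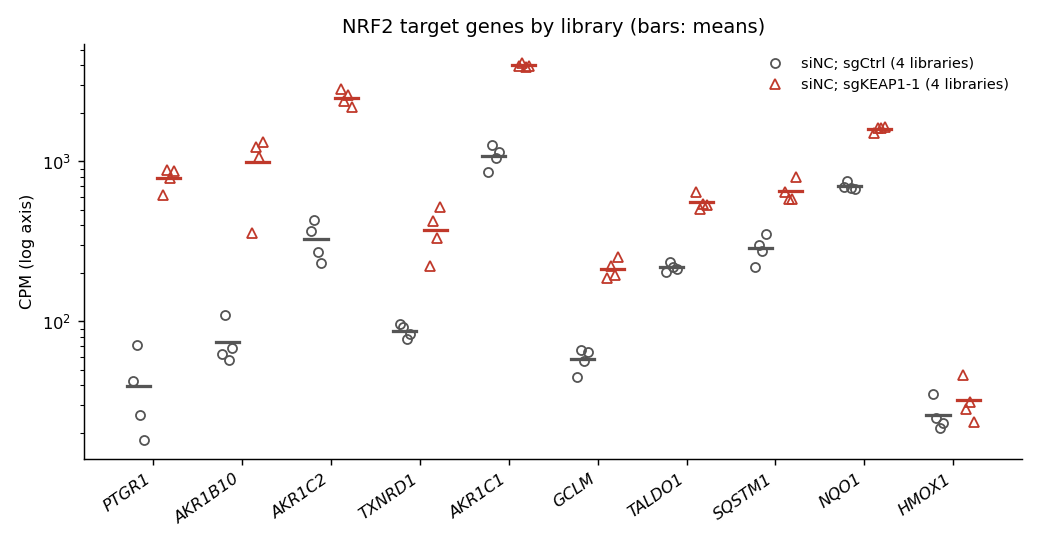
CPM on a log axis for 10 genes of the NRF2 pathway, with open circles for the 4 sgCtrl libraries, triangles for the 4 sgKEAP1-1 libraries and bars for the group means. The groups are separate for 9 genes, from PTGR1 to NQO1, while those of HMOX1 overlap.

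The promoters of the called NRF2 targets were searched for the core of the antioxidant response element, TGACNNNGC, on both strands. The AP-1 motif TGACTCA can lie within these letters. A RefSeq window from 250 bases before to 50 after the start was found for 24 of the 32 targets called higher, and 8 of these windows (33.3%) held a match. Over all 27305 RefSeq windows the share was 13.6%, over genes tested 15.2%, over all genes called higher 15.0% and over all called lower 12.2%. These shares are a description, and no test of them was made. The sequences of the 4 targets with the largest changes among those with a match follow, from RefSeq (GRCh38.p14 table), cut to 10 bases after the start and placed on GRCh37 by an exact match found once. Capitals mark the matches, which begin 99 and 8 bases before the start in TXNRD1 (chr12:104609307-104609566, plus strand), 156 bases before it in CYP4F11 (chr19:16045668-16045927, minus strand), 34 in GCLM (chr1:94374977-94375236, minus strand) and 201 in PGD (chr1:10458871-10459130, plus strand). A match is a description of the letters and does not show that NRF2 binds there.
TXNRD1: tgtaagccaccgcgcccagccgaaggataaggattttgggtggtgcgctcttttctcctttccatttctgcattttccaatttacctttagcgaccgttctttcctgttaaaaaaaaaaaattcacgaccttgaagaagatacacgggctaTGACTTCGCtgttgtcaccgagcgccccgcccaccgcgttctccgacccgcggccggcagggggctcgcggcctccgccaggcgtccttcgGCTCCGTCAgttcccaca
CYP4F11: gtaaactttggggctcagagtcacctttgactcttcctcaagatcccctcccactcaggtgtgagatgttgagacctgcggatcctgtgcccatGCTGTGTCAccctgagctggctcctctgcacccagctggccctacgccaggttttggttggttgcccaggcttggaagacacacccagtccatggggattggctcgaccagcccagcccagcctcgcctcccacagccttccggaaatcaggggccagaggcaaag
GCLM: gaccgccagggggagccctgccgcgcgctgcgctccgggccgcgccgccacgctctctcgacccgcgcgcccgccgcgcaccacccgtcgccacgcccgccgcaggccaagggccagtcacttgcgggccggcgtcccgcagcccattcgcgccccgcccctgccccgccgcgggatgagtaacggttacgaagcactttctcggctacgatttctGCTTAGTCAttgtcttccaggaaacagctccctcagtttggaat
PGD: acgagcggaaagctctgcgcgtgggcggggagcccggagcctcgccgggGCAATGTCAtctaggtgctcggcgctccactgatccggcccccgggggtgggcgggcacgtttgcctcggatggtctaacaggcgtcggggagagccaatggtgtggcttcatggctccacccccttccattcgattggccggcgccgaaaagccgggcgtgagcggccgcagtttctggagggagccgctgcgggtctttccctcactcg

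The enzymes behind the glutathione pool moved together at their entry step and less elsewhere. Of 23 tested genes of glutathione synthesis and recycling, 5 were called higher (21.7%, beside 6.01% over all genes) and 2 lower (8.7%, beside 4.91%), with a median of 0.16. The count of members lower was 1 without sgCtrl replicate 2 or 4 or sgKEAP1-1 replicate 2. GCLM, the modifier subunit of glutamate-cysteine ligase whose promoter is shown above, was at 45.2, 66.6, 56.3 and 64.4 CPM in sgCtrl and 186, 221, 194 and 253 CPM in sgKEAP1-1 libraries, with a log2 fold change of 1.88 (adjusted p 1.47e-10, SE 0.13). GCLC, the catalytic subunit of the same enzyme, was at 51.8, 65.6, 65.8 and 62.7 CPM and 147, 156, 142 and 186 CPM, with a log2 fold change of 1.36 (adjusted p 2.04e-09, SE 0.11). For both subunits the groups did not overlap. GSR, which returns oxidised glutathione to its reduced form, had a log2 fold change of 1.03 (adjusted p 1.06e-06, SE 0.12), with sgKEAP1-1 replicate 1 at 289 CPM and the other 3 at 454 to 486 CPM. The glutathione peroxidase GPX2 had a log2 fold change of 1.13 (adjusted p 3.27e-06, SE 0.14). GLRX5, a mitochondrial glutaredoxin that serves iron-sulfur cluster assembly, fell, with a log2 fold change of -0.44 (adjusted p 0.00571, SE 0.10).

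SLC7A11, the cystine importer that feeds this pathway and a known target of NRF2 and ATF4, did not pass the test over all libraries. It was at 70.9, 172, 153 and 230.4 CPM with sgCtrl and 156, 324, 259.9 and 372 CPM with sgKEAP1-1. In both groups replicate 1 was the lowest, the ranges overlapped, and the log2 fold change was 0.87 (adjusted p 0.0842, SE 0.32). Without sgKEAP1-1 replicate 1 it was 1.13 with an adjusted p of 0.0171, and without sgCtrl replicate 4 it was 1.11 with an adjusted p of 0.042.

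Of 20 tested thioredoxin and peroxiredoxin genes, 2 were called higher (10.0%, beside 6.01% over all genes) and 1 lower (5.0%, beside 4.91%). Without sgKEAP1-1 replicate 1 there were 4 called higher and 0 lower. The call of the lower member, SESN1, was lost without any 1 of 7 libraries, all but sgCtrl replicate 2. TXNRD1, thioredoxin reductase 1, was at 95.8, 92.00, 77.8 and 82.8 CPM with sgCtrl and 221, 425, 331 and 521 CPM with sgKEAP1-1. Replicate 1 was again the lowest of its group but above all sgCtrl libraries, and the log2 fold change was 2.04 (adjusted p 2.23e-07, SE 0.21). TXN, thioredoxin itself and chosen after its values were seen, was at 316, 211, 275 and 269 CPM and 163, 604, 456 and 738 CPM. Replicate 1 of sgKEAP1-1 was below every sgCtrl library while the other 3 were above every one, so that the log2 fold change was 0.69 (adjusted p 0.239, SE 0.35) over all libraries and 1.15 with an adjusted p of 0.00643 without that replicate. For PRDX1, a peroxiredoxin that removes hydrogen peroxide, the same library was the highest, at 2858 CPM beside 1928 to 2041 CPM in its companions, and the log2 fold change was 0.45 (adjusted p 0.00212, SE 0.10).

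NADPH pays for both systems, and the pentose phosphate pathway is its main cytosolic source. Of 18 tested genes of NADPH supply, 5 were called higher (27.8%, beside 6.01% over all genes) and 1 lower (5.56%, beside 4.91%), with a median of 0.25. TALDO1, transaldolase, was at 205, 235, 218 and 212 CPM with sgCtrl and 647, 501, 540.2 and 537 CPM with sgKEAP1-1, a log2 fold change of 1.35 (adjusted p 4.87e-10, SE 0.10). PGD, a dehydrogenase of this pathway, was at 77.97, 85.3, 67.2 and 67.7 CPM and 167, 175, 164 and 155 CPM, a log2 fold change of 1.15 (adjusted p 4.10e-07, SE 0.13). ALDH1L1, a folate enzyme that also yields NADPH, rose from between 14.4 and 22.4 CPM to between 50.3 and 66.8 CPM, a log2 fold change of 1.76 (adjusted p 3.19e-07, SE 0.19). NADK2, the mitochondrial NAD kinase, fell from between 51.6 and 60.4 CPM to between 30.01 and 35.7 CPM, a log2 fold change of -0.70 (adjusted p 0.000258, SE 0.12). For each of these 4 genes the groups did not overlap.

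Among genes that conjugate and export foreign compounds, more were called higher than lower. Of 18 tested genes of glucuronidation, hydrolysis and efflux, 9 were called higher, 3 lower (16.7%, beside 4.91% over all genes) and 6 neither, with a median of 0.53. The 3 lower were 1 with the libraries of the compared groups alone and 5 with sample quality weights. Of 13 glutathione transferases 4 were called higher (30.8%, beside 6.01% over all genes), 0 lower and 9 neither, and 6 of the 13 had a negative log2 fold change. GSTA2, an alpha-class glutathione transferase of liver, was at 4.83, 4.74, 2.30 and 5.66 CPM with sgCtrl and 62.2, 41.96, 61.1 and 43.6 CPM with sgKEAP1-1, a log2 fold change of 3.56 (adjusted p 3.65e-06, SE 0.45). Its near copy GSTA1, with which it shares much of its sequence so that reads may be split between them, was at 25.1, 19.7, 19.5 and 16.98 CPM and 175, 82.5, 155 and 92.1 CPM, a log2 fold change of 2.57 (adjusted p 4.44e-06, SE 0.33). In sgKEAP1-1 libraries both were higher in replicates 1 and 3 than in 2 and 4. The microsomal transferase MGST1 rose with a log2 fold change of 0.97 (adjusted p 0.000242, SE 0.17), and the omega-class GSTO1 with 0.39 (adjusted p 0.00516, SE 0.09).

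The efflux pump ABCC3, which sends conjugates out across the basolateral membrane, was at 33.5, 35.6, 31.9 and 30.9 CPM in sgCtrl and 92.7, 90.9, 95.3 and 110.2 CPM in sgKEAP1-1 libraries. ABCC2, its counterpart on the canalicular side and chosen after its values were seen, was at 48.5, 53.9, 47.1 and 45.99 CPM and 102, 112, 99.04 and 116 CPM. Both pumps were separate between the groups with little spread within them, with log2 fold changes of 1.56 (adjusted p 1.04e-08, SE 0.14) and 1.13 (adjusted p 2.73e-05, SE 0.17). EPHX1, microsomal epoxide hydrolase, rose from between 15.2 and 21.7 CPM to between 55.5 and 85.9 CPM (1.82 on the log2 scale). The carboxylesterase CES1 rose from between 2.12 and 6.73 CPM to between 15.6 and 49.6 CPM (2.74), whereas its relative CES2 fell from between 155 and 183 CPM to between 111 and 140.4 CPM (-0.43). UGT1A1, the bilirubin glucuronosyltransferase, had 1, 2, 1 and 0 reads in the sgCtrl libraries and 31, 31, 23 and 29 in the sgKEAP1-1 libraries. It was called higher, with an adjusted p of 0.00014, but with so few control reads its fitted fold change depends on the prior count, and the UGT1A genes share their 3′ exons.

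Among 15 aldehyde dehydrogenases, 3 were called higher and 2 lower. ALDH1A1, which oxidises retinal and is also used as a marker of stem-like tumour cells, rose from 163, 145, 133 and 132 CPM to 351, 415, 427 and 433 CPM, a log2 fold change of 1.504 (adjusted p 4.54e-08, SE 0.14). ALDH3A1, an enzyme of aromatic aldehydes, had 6, 6, 3 and 0 reads in the sgCtrl libraries and 47, 63, 63 and 47 in the sgKEAP1-1 libraries. Its groups were far apart, with a log2 fold change of 4.26 (adjusted p 1.29e-05, SE 0.60) that was 3.32 without sgCtrl replicate 4, the library with no read. The mitochondrial ALDH6A1, of valine breakdown, fell from between 83.8 and 108 CPM to between 38.6 and 71.4 CPM (-0.74). Of 14 tested cytochrome P450 genes, 4 were called higher (28.6%) and 1 lower (7.14%), or 2 lower without sgKEAP1-1 replicate 1 and 0 without sgCtrl replicate 4. CYP4F11 and CYP4F3, fatty acid omega-hydroxylases, had log2 fold changes of 1.90 (adjusted p 8.03e-06, SE 0.26) and 1.27 (adjusted p 5.54e-06, SE 0.17), and CYP2S1 rose from 1.52, 1.75, 4.02 and 1.65 CPM to 9.07, 10.8, 13.3 and 12.8 CPM (2.43).

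Heme and iron genes did not move as a single group. Of 23 tested, 6 were called higher (26.1%, beside 6.01% over all genes) and 4 lower (17.4%, beside 4.91%), with a median of 0.17. HMOX1, heme oxygenase 1 and a classic NRF2 and BACH1 target, was at 35.05, 24.9, 21.5 and 23.1 CPM with sgCtrl and 46.4, 28.4, 31.2 and 23.6 CPM with sgKEAP1-1. The ranges overlapped, and the log2 fold change of 0.28 (adjusted p 0.45, SE 0.21) did not pass the test. The ferritin light chain FTL, which stores iron, was among the most abundant transcripts, at 3990.4, 4135, 4032 and 3723 CPM and 8758, 6404, 7031 and 6286 CPM, with a log2 fold change of 0.83 (adjusted p 3.57e-06, SE 0.11). SLC40A1, ferroportin, which exports iron, was at 27.2 to 32.3 CPM in sgCtrl libraries and 37.05, 91.4, 92.5 and 108 CPM in sgKEAP1-1 libraries. Replicate 1 stood near the controls and the other 3 well above, with a log2 fold change of 1.40 (adjusted p 0.000332, SE 0.25). FECH, which puts iron into heme, rose (0.92), and FLVCR1, a heme exporter, fell (-0.65). The iron sensor TFR2 fell from 20.1, 43.4, 35.6 and 43.6 CPM to 14.1, 14.7, 12.6 and 11.6 CPM, a log2 fold change of -1.37 (adjusted p 0.000366, SE 0.25).

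Metallothioneins, small cysteine-rich proteins that hold zinc and copper and can act as antioxidants, went down. Of 13 tested metallothionein and zinc genes, 0 were called higher and 9 lower (beside 4.91% over all genes), with a median of -0.999. Without sgKEAP1-1 replicate 4, 1 was called higher. MT1M was at 62.7, 49.4, 53.1 and 37.03 CPM in the sgCtrl libraries and 12.6, 11.7, 11.1 and 5.06 CPM in the sgKEAP1-1 libraries, a log2 fold change of -2.37 (adjusted p 5.98e-07, SE 0.27). MT1G was at 733, 559, 596 and 395 CPM and 265, 169.5, 236 and 160.3 CPM, and MT1F at 408, 329, 349 and 303 CPM and 171, 117, 141 and 108 CPM. Every sgKEAP1-1 library was below every sgCtrl library for these genes, with log2 fold changes of -1.45 (adjusted p 8.03e-06, SE 0.20) for MT1G and -1.39 (adjusted p 2.23e-07, SE 0.15) for MT1F. In both groups replicate 4 was the lowest for each of them. MT1X, MT1E and MT1A, the last pair chosen after their values were seen, had log2 fold changes of -1.10, -0.93 and -0.999. MT2A, the most abundant of the family, was at 3041, 2885, 3117 and 2262 CPM and 1799, 2346, 2065 and 2425 CPM, with overlapping ranges and a log2 fold change of -0.39 (adjusted p 0.143, SE 0.16). These genes are close copies in a cluster on chromosome 16, so the split of reads between them is uncertain. SLC30A10, an exporter of manganese, fell from between 16.8 and 25.5 CPM to between 5.53 and 7.71 CPM (-1.62).

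A RefSeq window was found for 2 of the 7 tested metallothionein genes, and both held the core of the metal response element, TGCACNC or TGCGCNC on either strand, with a mean of 6 matches. Of these 2 genes, MT1X was called lower and MT2A was not. Over all RefSeq windows 29.3% held a match, and over genes tested 39.3%. The letters were searched after the values had been seen. Both windows also held the antioxidant response element core, TGACNNNGC, with a mean of 1 match. That core was in 13.6% of all windows and 15.2% over genes tested. The promoter of MT1X is shown as that of the member with the largest change among those called lower with a match (chr16:56716132-56716391, plus strand of GRCh37, from RefSeq). Capitals mark the matches to the metal response element core only, which begin 150, 122, 78 and 53 bases before the start. The antioxidant response element core in this window (gcaatgtca) is left in lower case.
MT1X: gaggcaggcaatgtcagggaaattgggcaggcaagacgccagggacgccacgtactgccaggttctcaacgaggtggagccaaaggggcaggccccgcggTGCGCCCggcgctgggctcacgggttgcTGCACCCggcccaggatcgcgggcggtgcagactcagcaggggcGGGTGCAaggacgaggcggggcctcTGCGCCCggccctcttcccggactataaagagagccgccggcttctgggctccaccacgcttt

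A part of the genes of proteins that hepatocytes secrete was called lower in sgKEAP1-1 cells. Of 48 tested genes of plasma proteins, 1 was called higher, 16 lower (33.3%, beside 4.91% over all genes) and 31 neither. Their median was -0.42, and 12 of the 48 log2 fold changes were positive. Of 18 apolipoprotein and lipoprotein assembly genes 0 were called higher, 7 lower (38.9%) and 11 neither, with a median of -0.34 and 6 positive. ALB, albumin, the most abundant protein of plasma, was at 8526, 11059, 11759 and 12197 CPM with sgCtrl and 3961, 4549, 4487 and 4798 CPM with sgKEAP1-1. The groups were far apart, with a log2 fold change of -1.28 (adjusted p 6.99e-09, SE 0.11). AFP, the fetal counterpart of albumin that liver cancers make again, was at 4829.6, 7944, 7451 and 9100.4 CPM and 1115, 2532, 2204 and 2859.9 CPM, a log2 fold change of -1.80 (adjusted p 6.49e-06, SE 0.24). In both groups replicate 1 was the lowest for ALB and AFP alike. TF, transferrin, the iron carrier of plasma, was at 1893, 2558, 2563 and 2651 CPM and 1071, 1298, 1432 and 1405 CPM, a log2 fold change of -0.89 (adjusted p 1.53e-05, SE 0.13).

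MTTP, which loads lipid onto apolipoprotein B, had the largest change of the lipoprotein genes, from 95.8, 131, 114 and 127 CPM to 22.2, 25.01, 21.1 and 25.6 CPM. No sgKEAP1-1 library was near the sgCtrl range, and the log2 fold change was -2.31 (adjusted p 3.48e-08, SE 0.22). APOA1, the main protein of high-density lipoprotein, had one of -0.74 (adjusted p 0.00042, SE 0.13), and APOC3, an inhibitor of lipoprotein lipase, one of -0.91 (adjusted p 0.000767, SE 0.18), with replicate 1 of sgKEAP1-1 inside the sgCtrl range. SELENOP, the selenium carrier, fell from between 924 and 1384 CPM to between 349.5 and 751 CPM (-1.0004), and vitronectin, VTN, from between 16.3 and 22.97 CPM to between 6.27 and 10.1 CPM (-1.32). FGL1, a secreted hepatokine, was the member that rose, with 2 called higher without sgKEAP1-1 replicate 1 or sgCtrl replicate 2. It went from 139, 172, 184 and 168 CPM to 265, 293, 332 and 331 CPM, a log2 fold change of 0.89 (adjusted p 7.13e-06, SE 0.12).

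Of 27 hepatocyte transcription factor genes, 0 were called higher and 7 lower (25.9%, beside 4.91% over all genes), with a median of -0.31. These calls were fragile, since 1 was left with the libraries of the compared groups alone, 3 without sgCtrl replicate 2, 3 or 4 or without sgKEAP1-1 replicate 3 or 4, and 4 without sgKEAP1-1 replicate 2. HNF4A, the nuclear receptor at the centre of the hepatocyte programme, was at 180.1, 189.7, 194 and 204 CPM with sgCtrl and 166, 126, 152 and 145 CPM with sgKEAP1-1. The groups did not overlap, but the difference was small, with a log2 fold change of -0.38 (adjusted p 0.0297, SE 0.12), and the call was lost without any of sgCtrl replicates 2, 3 and 4 or sgKEAP1-1 replicates 2, 3 and 4 (adjusted p 0.0618 to 0.146). NR2F2, an orphan nuclear receptor, had a log2 fold change of -0.62 (adjusted p 0.00779, SE 0.15). Of 15 tested genes of bile acid synthesis and its FXR feedback, 0 were called higher and 5 lower (33.3%, beside 4.91% over all genes). The count of members lower was 2 or 3 without any of sgCtrl replicates 2, 3 and 4 or sgKEAP1-1 replicates 2, 3 and 4. KLB, the co-receptor through which FGF19 restrains bile acid synthesis, fell from 149.9, 193, 187 and 211 CPM to 112, 77.8, 78.2 and 87.5 CPM, a log2 fold change of -1.06 (adjusted p 4.80e-06, SE 0.14). CYP7A1, the rate-limiting enzyme of bile acid synthesis, was too low to be tested, with 0.762, 2.49, 2.30 and 0.708 CPM in sgCtrl and 0.504, 0, 0.251 and 0.241 CPM in sgKEAP1-1 libraries.

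**Figure D3:**
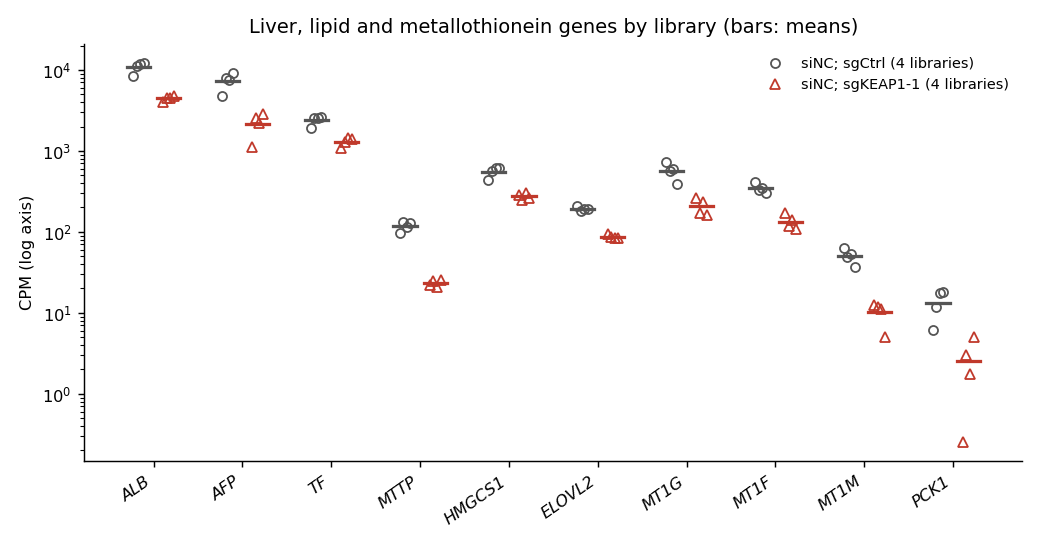
CPM on a log axis for 10 genes of plasma proteins, lipoprotein assembly, lipid synthesis, metallothioneins and gluconeogenesis, with open circles for the 4 sgCtrl libraries, triangles for the 4 sgKEAP1-1 libraries and bars for the group means. Every sgKEAP1-1 library lies below every sgCtrl library for all 10 genes, with PCK1 the most scattered.

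Cholesterol synthesis fell as a pathway. The genes of this list are targets of SREBP2, the factor that is released to the nucleus when membrane sterol is low. Of 22 tested, 16 were called lower (72.7%, beside 4.91% over all genes) and 0 higher, with a median of -0.67. HMGCS1, an early enzyme of the pathway that condenses acetyl-CoA units, was at 435, 563, 612 and 609 CPM with sgCtrl and 288, 247, 300.4 and 264 CPM with sgKEAP1-1. All 4 sgKEAP1-1 libraries were below all 4 sgCtrl libraries, and the log2 fold change was -1.004 (adjusted p 9.75e-06, SE 0.14). Of the 15 tested members with a RefSeq window, 1 held TCACNCCAC, a sterol response element sequence searched after the values were seen, and 0 of the 10 among them that were called lower did, beside 1.15% of all windows.

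Of 22 fatty acid synthesis genes, 1 was called higher (4.55%, beside 6.01% over all genes) and 6 lower (27.3%, beside 4.91%), with a median of -0.21. ELOVL2, which lengthens polyunsaturated fatty acids, was at 207, 182, 190.1 and 190.3 CPM and 93.8, 86.98, 83.96 and 83.7 CPM, a log2 fold change of -1.14 (adjusted p 3.19e-07, SE 0.12). The desaturase FADS2 had one of -0.70 (adjusted p 0.00364, SE 0.16), and GPAM, the first enzyme of triglyceride synthesis, one of -0.68 (adjusted p 0.0045, SE 0.16). The 26 tested genes of fatty acid oxidation and ketone synthesis went both ways, with 2 called higher (7.69%) and 3 lower (11.5%). CPT1A, which takes fatty acids into mitochondria, rose from 89.4, 113, 128 and 75.7 CPM to 267, 215, 237 and 210.0 CPM, a log2 fold change of 1.22 (adjusted p 8.37e-08, SE 0.12). ETFB, an electron carrier of this pathway, rose (0.76), and HADH, a dehydrogenase of the same cycle, fell (-0.74). The count of members lower was 1 without sgKEAP1-1 replicate 2 or without sgCtrl replicate 3 or 4.

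Of 19 tested glycolysis and glucose uptake genes, 7 were called higher (36.8%, beside 6.01% over all genes), 0 lower and 12 neither, with a median of 0.38. SLC2A3, the glucose transporter GLUT3, was at 229.9, 232, 222 and 146 CPM with sgCtrl and 397, 463, 367 and 462 CPM with sgKEAP1-1, a log2 fold change of 1.05 (adjusted p 1.41e-05, SE 0.15). PFKP, the platelet form of phosphofructokinase, rose from 4.06, 2.49, 4.31 and 3.77 CPM to 14.9, 22.5, 16.6 and 13.98 CPM (2.18), and PKM, pyruvate kinase, from between 501 and 723 CPM to between 771 and 1314 CPM (0.75). Each of the 3 was separate between the groups.

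Of 15 gluconeogenesis and glycogen genes, 0 were called higher, 5 lower (33.3%, beside 4.91% over all genes) and 10 neither. The median was -0.10, and 6 of the 15 log2 fold changes were positive. The difference between this list and that of glycolysis was not tested. The number called lower was 3 with the libraries of the compared groups alone and also without any of sgCtrl replicates 2, 3 and 4 or sgKEAP1-1 replicates 3 and 4. PCK1, the cytosolic enzyme that starts gluconeogenesis from oxaloacetate, was at 6.10, 11.7, 17.5 and 18.2 CPM and 0.252, 3.06, 1.76 and 5.06 CPM. In both groups replicate 1 was the lowest, and the log2 fold change was -2.74 (adjusted p 0.0137, SE 0.73), or -1.96 with an adjusted p of 0.0484 without sgKEAP1-1 replicate 1. CREB3L3, a liver factor of fasting, fell from between 12.2 and 20.3 CPM to between 3.86 and 7.04 CPM (-1.30). PGM1, which links glycogen to glucose 6-phosphate, fell from between 78.2 and 88.7 CPM to between 42.8 and 56.2 CPM (-0.72).

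The genes with the largest changes included many that belong to none of these pathways. Among the 12 genes that rose most with at least 10 CPM in the higher group, MAP2, a microtubule protein best known from neurons, had 0, 9, 0 and 0 reads in the sgCtrl libraries and 123, 133, 197 and 201 reads in the sgKEAP1-1 libraries. DEFB1, an epithelial defensin, had 2, 25, 0 and 0 and 81, 151, 154 and 129 reads. In both cases the reads of the control group came almost entirely from sgCtrl replicate 2. The fitted log2 fold changes were 7.26 and 5.94 and became 8.32 and 7.18 without that library, and that of DEFB1 was 5.18 without sgCtrl replicate 4, which shows how far such values depend on a few control reads.

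KILH had 3, 1, 0 and 2 and 62, 64, 60 and 68 reads, and NOTCH3, a receptor of the Notch family, 1, 7, 1 and 1 and 45, 66, 73 and 62, with sgCtrl replicate 2 again the highest control for NOTCH3. TINAG, a basement membrane protein, went from between 0.508 and 2.24 CPM to between 17.2 and 30.5 CPM, and TUSC3, a subunit of an oligosaccharyltransferase, from between 0.762 and 2.49 CPM to between 17.1 and 28.1 CPM. All of these were called higher, and their fitted fold changes depend on the prior count too. Better measured were SEL1L3, at 7.62, 15.2, 5.74 and 3.54 CPM with sgCtrl and 84.4, 152, 141 and 129 CPM with sgKEAP1-1 (log2 fold change 4.13, adjusted p 3.48e-08, SE 0.39), and SLC30A3, a zinc transporter of vesicles, at 4.57, 10.97, 6.60 and 5.42 CPM and 139, 78.7, 84.96 and 74.01 CPM (log2 fold change 3.78, adjusted p 3.67e-10, SE 0.28). For SLC30A3, replicate 1 of sgKEAP1-1 was well above its companions. LUCAT1, a long noncoding RNA that is known to respond to NRF2, went from 1.78, 2.99, 1.72 and 0.943 CPM to 26.7, 24.5, 27.1 and 21.5 CPM, and HHIPL2, also with few control reads, from between 0.508 and 1.25 CPM to between 14.2 and 16.9 CPM, with log2 fold changes of 3.76 and 3.99.

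Among the 12 that fell most, beside AFP, MTTP and MT1M, CTXND1 was at 11.4, 10.5, 11.2 and 12.97 CPM with sgCtrl and 2.77, 1.95, 0.251 and 1.21 CPM with sgKEAP1-1. Its log2 fold change was -3.15, or -2.54 without sgKEAP1-1 replicate 3. COL2A1, the collagen of cartilage, fell from 18.3, 28.9, 29.00 and 34.9 CPM to 7.31, 3.89, 2.77 and 5.30 CPM, a log2 fold change of -2.54 (adjusted p 1.51e-06, SE 0.30). SLCO4C1, an organic anion transporter, fell from between 17.4 and 43.2 CPM to between 3.61 and 7.81 CPM (-2.31), and ACSM2B, a mitochondrial acyl-CoA synthetase, from between 14.7 and 17.4 CPM to between 1.76 and 5.04 CPM (-2.28). TNFSF10, the death ligand TRAIL, fell from between 19.1 and 29.2 CPM to between 2.78 and 8.80 CPM (-2.13). SCN1A, a sodium channel subunit, had a log2 fold change of -2.19, NAALADL1 one of -1.95 and SNX22, a sorting nexin, one of -1.82.

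The question the study put to these cells concerned lysosomes, whose genes are driven by TFEB and TFE3. Neither factor passed the test at the RNA level. TFEB was at 17.3, 6.98, 8.33 and 10.8 CPM with sgCtrl and 13.4, 9.17, 11.3 and 13.7 CPM with sgKEAP1-1, with overlapping ranges and a log2 fold change of 0.20 (adjusted p 0.694, SE 0.25). TFE3 was at 29.2, 35.9, 31.9 and 36.1 CPM and 60.5, 43.9, 58.1 and 33.99 CPM, also overlapping, with 0.52 (adjusted p 0.113, SE 0.21), or 0.70 with an adjusted p of 0.0282 without sgKEAP1-1 replicate 4. A list of 23 tested genes holds both factors, their nutrient-sensing regulators and a few linked genes such as GPNMB, a known target. Of these 23, 0 were called higher and 1 lower (4.35%, beside 4.91% over all genes). The count of members higher was 2 without sgKEAP1-1 replicate 2, and 1 without sgCtrl replicate 2 or 4 or sgKEAP1-1 replicate 4 and with edgeR, DESeq2 or sample quality weights. The member called lower was FNIP2, a partner of folliculin and a known feedback target of TFEB, from between 75.4 and 94.6 CPM to between 51.1 and 62.1 CPM (-0.60).

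Lysosomal genes were called in small numbers, and with 1 exception upward. Of 40 tested hydrolases and their activators, 7 were called higher (17.5%, beside 6.01% over all genes) and 0 lower, with a median of 0.19, and 4 were called higher without sgCtrl replicate 1. GLA, alpha-galactosidase A, was at 11.4, 14.5, 9.19 and 15.3 CPM with sgCtrl and 32.8, 25.3, 38.5 and 31.1 CPM with sgKEAP1-1. Its groups did not overlap, and the log2 fold change was 1.33 (adjusted p 1.46e-05, SE 0.19). CTSB, the protease cathepsin B, was at 412, 533, 519 and 540.1 CPM and 627, 883, 797 and 967 CPM (0.70, adjusted p 0.00475, SE 0.16), and HEXA, a subunit of beta-hexosaminidase, had a log2 fold change of 0.67 (adjusted p 0.00159, SE 0.14). Of 16 tested subunits of the proton pump 2 were called higher (12.5%) and 0 lower. The 2 were ATP6V0E1 (0.47, adjusted p 0.00154, SE 0.10) and ATP6V1E1 (0.46, adjusted p 0.00678, SE 0.11), and 4 were called higher without sgKEAP1-1 replicate 2. Of 32 lysosomal membrane and sorting genes 3 were called higher (9.38%) and 1 lower (3.12%, beside 4.91% over all genes), with a median of 0.05. The count of members lower was 2 without sgCtrl replicate 1 and 0 without sgCtrl replicate 3 or sgKEAP1-1 replicate 3 or 4. The adaptor subunits AP1S3 and AP1M2 had log2 fold changes of 0.96 (adjusted p 0.000236, SE 0.17) and 0.71 (adjusted p 0.00939, SE 0.18). AP1M2 is also among the genes within 1 Mb of KEAP1 that were called higher, and whether its position matters was not tested.

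Of 36 autophagy genes 4 were called higher (11.1%, beside 6.01% over all genes), SQSTM1 among them, with a median of 0.04. None was called lower, or 1 without sgCtrl replicate 1. GABARAPL1, which coats the growing autophagosome, was at 12.7, 33.9, 29.9 and 28.8 CPM with sgCtrl and 53.9, 55.02, 49.5 and 55.5 CPM with sgKEAP1-1, a log2 fold change of 1.11 (adjusted p 0.000415, SE 0.20). TAX1BP1, a receptor like p62, had one of 0.68 (adjusted p 0.00212, SE 0.15). In both genes sgCtrl replicate 1 was the lowest of all 8 libraries.

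Of 37 tested cell cycle genes, 33 had a negative log2 fold change, with a median of -0.36. Of the 37, 2 were called higher and 2 lower (5.41% each way), near the shares over all genes of 6.01% and 4.91%. How many were called lower depended on the setting. The count was 11 with sample quality weights and likewise with the replicate number as a block, 9 without sgKEAP1-1 replicate 1, 4 with DESeq2, and 0 with the libraries of the compared groups alone, without sgCtrl replicate 3 or without sgKEAP1-1 replicate 3 or 4. The proliferation marker MKI67 was at 256, 143, 138 and 132 CPM with sgCtrl and 203, 111, 146 and 109 CPM with sgKEAP1-1. Replicate 1 was the highest in both groups, the ranges overlapped, and the log2 fold change was -0.22 (adjusted p 0.683, SE 0.27). The cyclins CCND1 and CCND3, which drive entry into the cycle, rose, with log2 fold changes of 0.55 (adjusted p 6.51e-05, SE 0.09) and 1.14 (adjusted p 7.86e-05, SE 0.18). Of 20 p53 targets 3 were called higher (15.0%) and 1, SESN1, lower (5.0%). CDKN1A, the cycle inhibitor p21, rose from between 63.8 and 86.5 CPM to between 110.4 and 131 CPM (0.68), and TP53I3, a quinone oxidoreductase, from between 27.9 and 34.8 CPM to between 44.4 and 54.4 CPM (0.64). Other stress programmes were called at about the shares over all genes, or below them. Of 32 ATF4 targets 0 were called higher and 2 lower (6.25%). Of 20 unfolded protein response genes 1 was called higher (5.0%) and 0 lower. Of 43 proteasome genes 3 were called higher (6.98%) and 0 lower, and of 20 interferon genes 0 higher and 1 lower (5.0%). The ATF4 count of members higher was 2 without sgCtrl replicate 4 or with sample quality weights and 1 without sgKEAP1-1 replicate 1. Its count of members lower was 5 with the replicate number as a block, 4 with sample quality weights or without sgCtrl replicate 1, 0 with the libraries of the compared groups alone and 1 without sgCtrl replicate 2 or 4 or sgKEAP1-1 replicate 3, and the proteasome count was 1 without sgCtrl replicate 3 or 4 or sgKEAP1-1 replicate 3 and 5 without sgKEAP1-1 replicate 2 or 4. The unfolded protein response count was 0 without sgKEAP1-1 replicate 1 or 3 and 2 without sgKEAP1-1 replicate 2 or 4. The interferon call was lost without any 1 of 7 libraries.

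Matrix genes split, with 3 of 20 called higher and 4 lower. FN1, fibronectin, was at 4567, 7146, 6379 and 6763 CPM with sgCtrl and 9049, 9567, 9857 and 8457 CPM with sgKEAP1-1, a log2 fold change of 0.59 (adjusted p 0.00176, SE 0.12). LAMC3, a laminin chain, had 2, 2, 0 and 0 reads in sgCtrl and 32, 26, 48 and 40 reads in sgKEAP1-1 libraries and was called higher (adjusted p 0.000106). COL27A1, a fibrillar collagen, fell from between 253 and 273 CPM to between 123 and 179.9 CPM (-0.79).

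Of 8 listed markers of the cholangiocyte, the other epithelial lineage of liver, 4 were in the table. They were 2 higher, 1 lower and 1 not called, and summed to 888 to 938 CPM in sgCtrl and 1762 to 2490 CPM in sgKEAP1-1 libraries, a sum in which SPP1 and KRT19 were the members that rose. SPP1, osteopontin, a secreted protein that liver tumours also make, was at 210.3, 199.7, 203 and 176 CPM and 819, 1301, 1118 and 1480.2 CPM, a log2 fold change of 2.55 (adjusted p 3.67e-10, SE 0.19). KRT19, a keratin of bile duct cells and of a subset of liver cancers, was at 292, 292, 246 and 241 CPM and 625, 700.3, 622 and 646 CPM, a log2 fold change of 1.28 (adjusted p 3.19e-07, SE 0.14). SOX9, the factor that defines the lineage, went the other way, from between 296 and 348 CPM to between 209 and 289 CPM (-0.42, adjusted p 0.00514, SE 0.10). EPCAM, an epithelial adhesion protein, did not pass, with a log2 fold change of -0.13 (adjusted p 0.609). The part of such cells in the calls of plasma protein genes was not tested. Of the 4 leukocyte markers in the table, the sum of 1542 to 2818 CPM in sgCtrl and 953 to 1918 CPM in sgKEAP1-1 libraries was almost all LYZ, lysozyme, whose log2 fold change was -0.61 (adjusted p 0.0291, SE 0.18), a call lost without any 1 of 5 libraries (sgKEAP1-1 replicate 1 or 3, or sgCtrl replicate 2, 3 or 4). Of the 4 fibroblast markers, TAGLN, an actin-binding protein, was called lower (-1.10).

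**Figure D4:**
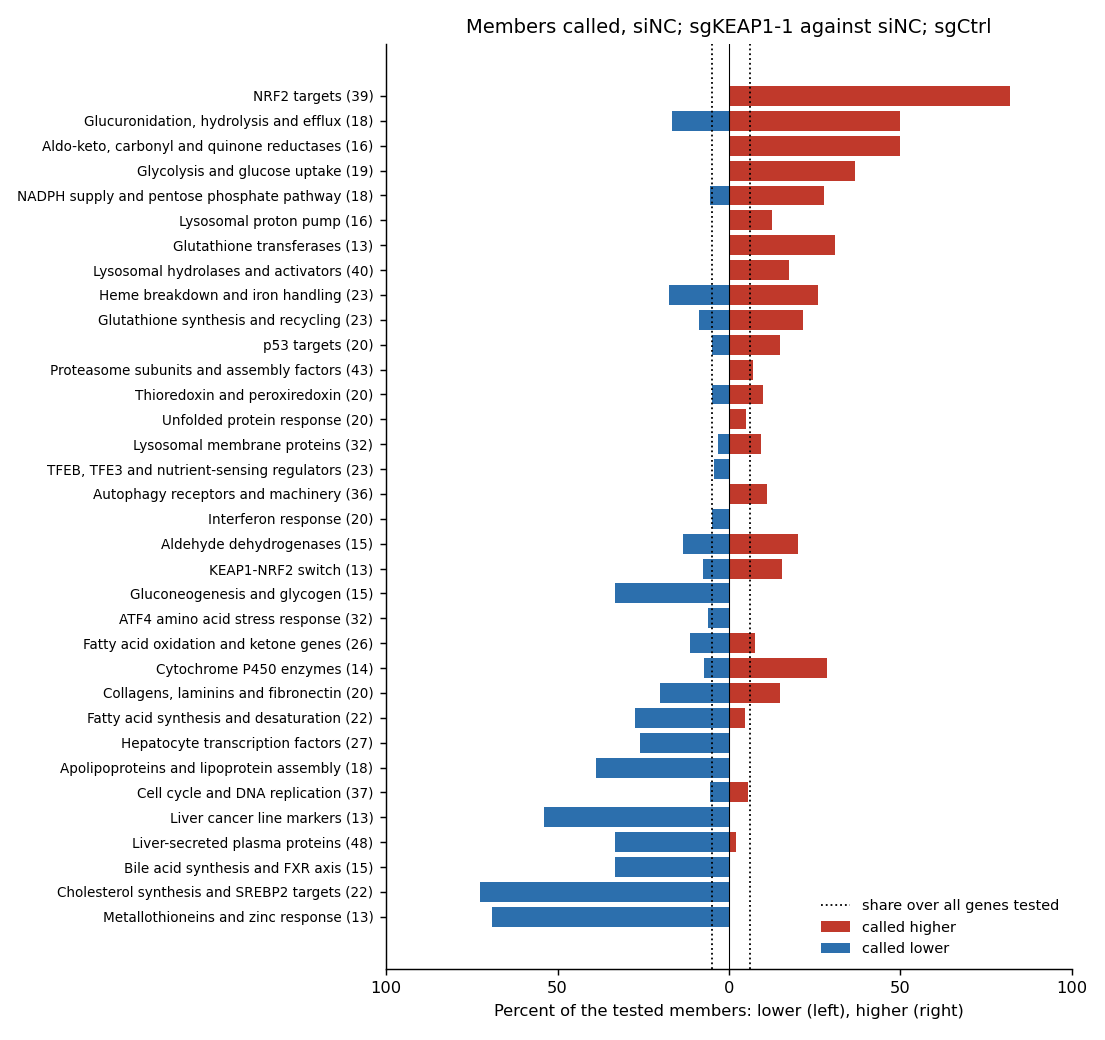
For each list with at least 10 tested members (number in brackets), the bars give the percent of members called higher to the right and called lower to the left, in order of the median log2 fold change, and the dotted lines give the shares over all genes tested, 6.01% and 4.91%. NRF2 targets stand at the top with 82.1% higher, and cholesterol synthesis and metallothionein genes lie furthest to the left, at 72.7% and 69.2% lower.

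The same guide contrast was measured in 8 other libraries, those with siTFEB/siTFE3, which share no sample with the comparison above. They carry the same guides and column prefixes, and no separate transduction is described for them. Any difference between the sgCtrl and sgKEAP1-1 cells would thus recur here, so this is not an independent check of the guide. In the sgCtrl cells TFEB was at 6.98 to 17.3 CPM with siNC and 2.10 to 3.96 CPM with siTFEB/siTFE3, and TFE3 at 29.2 to 36.1 and 7.88 to 19.6 CPM. In the sgKEAP1-1 cells TFEB was at 9.17 to 13.7 and 1.41 to 4.01 CPM, and TFE3 at 33.99 to 60.5 and 10.7 to 19.04 CPM. With siTFEB/siTFE3, 634 genes were called higher with sgKEAP1-1, or 5.69%, and 536 lower, or 4.81%. Of the 670 genes called higher under siNC, 658 had a positive log2 fold change in these libraries, 452 (67.5%) were called higher and 0 lower, with a median of 0.76. Of the 548 called lower, 539 had a negative one, 338 (61.7%) were called lower and 0 higher, with a median of -0.57. Counted from the other side, 71.3% of the genes called higher and 63.1% of those called lower under siTFEB/siTFE3 were called the same way under siNC. Over all genes tested, 71.5% had the same sign in both comparisons, and the log2 fold changes had a Pearson's r of 0.759 and a Spearman's rho of 0.609 across the 11152 genes, which are not independent replicates.

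Of the 39 NRF2 targets tested, 35 were called higher under siTFEB/siTFE3. PTGR1 had a log2 fold change of 4.35 there, AKR1B10 3.95, TXNRD1 2.23 and NQO1 1.30. SLC7A11 and TXN, which missed the threshold under siNC, had 1.18 (adjusted p 0.0168) and 1.19 (adjusted p 0.0247). On the falling side ALB had -1.02 (adjusted p 3.71e-07), MTTP -1.90 (adjusted p 1.69e-07), HMGCS1 -1.14 (adjusted p 1.97e-06) and MT1G -1.32 (adjusted p 2.72e-05), and HNF4A, whose call was fragile under siNC, had -0.54 (adjusted p 0.00223). Cholesterol genes were again lower in 16 of 22, 13 of them called in both comparisons, and plasma protein genes in 18 of 48, 14 of them in both. For lysosomal hydrolases 4 of 40 were called higher, 3 of them also under siNC. GLA had 1.24 (adjusted p 5.12e-05), while CTSB had 0.49 (adjusted p 0.0547), HEXA 0.32 (adjusted p 0.152) and AP1M2 0.09 (adjusted p 0.837), which did not pass. Passing under siNC but not here is not itself a difference between the siRNAs. The interaction, tested below, was called for no gene.

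**Figure D5:**
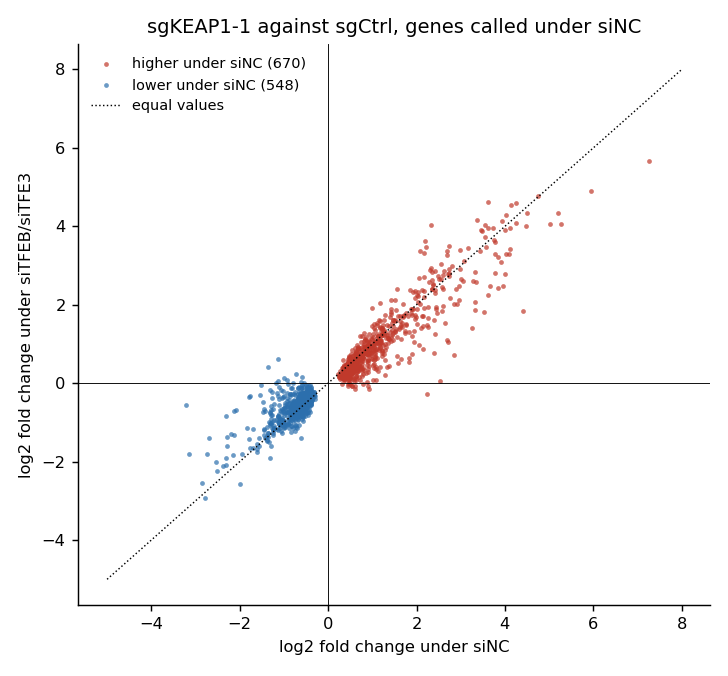
Log2 fold change of sgKEAP1-1 against sgCtrl under siNC (horizontal axis) and under siTFEB/siTFE3 (vertical axis) for the genes called under siNC, with a dotted line at equal values. Of the 670 genes called higher 658 lie above 0 on the vertical axis, and of the 548 called lower 539 lie below it.

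Whether the guide effect differed between the siRNA treatments was tested as an interaction. No gene was called (0.0% of the 11152 tested by limma-voom), with 304 genes at an unadjusted p under 0.05 and a smallest adjusted p of 0.928, and DESeq2 and the quasi-likelihood test of edgeR called 0 as well. Over the 1218 genes called under siNC the median absolute size of the interaction was 0.17 on the log2 scale, and 86 of them had an unadjusted p under 0.05. Among genes named above, CPT1A had an interaction of -0.46 (unadjusted p 0.0114), SLC30A3 one of -0.98 (0.012) and AP1M2 one of -0.62 (0.0198), none of which passed the adjustment.

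The second guide offered a check of what might be particular to sgKEAP1-1. When sgKEAP1-2 libraries were set directly against sgKEAP1-1 libraries, both with siNC, no gene was called by limma-voom (0.0%), with a smallest adjusted p of 0.061 and 598 genes at an unadjusted p under 0.05. Over the 1218 genes called for sgKEAP1-1, the median absolute difference between the guides was 0.14 on the log2 scale, and 123 had an unadjusted p under 0.05. DESeq2 called 9 genes in this contrast and the quasi-likelihood test of edgeR called 2.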

How the data were processed

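RNA of HepG2 cells was read with QuantSeq 3′ libraries, single-end, on an Illumina NextSeq 500. The values the authors deposited are raw read counts per gene and library, whole numbers with no normalisation. Per the labels, the tools were FastQC 0.72, cutadapt 1.16, STAR 2.7.5b, featureCounts 1.6.3 and limma 3.40.6. The study's methods name hg19 (GRCh37) and the submitters' processing notes hg38, so the build of the counts is uncertain. The table holds no coordinates, and positions given here come from the Ensembl annotation of GRCh37. The annotation, strand setting and row filter are not given in the sources used here. Without a known strand setting, overlapping and antisense genes cannot be told apart.

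Columns were matched to libraries by the labels, with 0 left unmatched. Rows without a gene ID, 1414 of 13446, held 1.35% to 2.05% of the reads of the 8 libraries and were left out. IDs with identical counts in all libraries, 160 of 12009, were kept as 78 features, which gave 11927. The limma-voom test (R 4.3.3, with edgeR 4.0.16 and limma 3.58.1) was run in 1 fit of all 24 libraries and 6 group means, after filterByExpr by group and TMM scaling. The tests were two-sided, adjusted by the Benjamini-Hochberg method with a threshold of 0.05, and checked on simulated data. Total reads were 3575348 to 4402478 per library. Reads carry no molecular identifiers, so counts are not counts of molecules.

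Gene lists and the rule for named genes were set with earlier results of these data known. The rule took 23 fixed genes, the 12 genes with the largest change each way at a mean of at least 10 CPM in the higher group, and up to 4 called members per list and direction with at least 10 counts on average. Of the 148 called genes it gave, 33 that lost the threshold under at least 1 alternative are described only within the counts of their lists. SRXN1 was not analysed here, and a few other genes of the rule are not reported here. The alternatives were DESeq2 size factors, no filter, the quasi-likelihood test of edgeR, DESeq2 (1.42.0), the libraries of the compared groups alone, the replicate number as a block, sample quality weights, a log2 fold change of at least 1 and leaving out each library. The fold change limit was applied only to the counts of all genes called, not to the calls of named genes. Leaving out every library numbered 1 was added after seeing the data. Promoter windows are those of RefSeq for GRCh38.p14, and genes without one were not searched.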

Additional observations from a re-analysis of the deposited data

Results flagged for a closer look

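Among the genes named in the text, 244 groups of 4 libraries were examined for a library whose gap to the nearest of the others took up more of the group's range than Dixon's criterion allows at 95%. This happened 16 times, 6 of them in sgKEAP1-1 replicate 1 and 10 in sgCtrl libraries, where chance gives about 1 in 20 groups. Values are in CPM, with the range of the other 3 libraries of the group beside them.

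In sgKEAP1-1 replicate 1, PRDX1 was at 2858.3 (1928 to 2041), ETFB at 1764.3 (1224 to 1264) and SLC30A3 at 139.4 (74.0 to 85.0), all above their companions. In the same library NQO1 was at 1497.5 (1618 to 1637), GSR at 289.3 (454 to 486) and MT1E at 790.1 (943 to 962), below them.

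In sgCtrl replicate 2, DEFB1 was at 6.233 (0 to 0.508), MAP2 at 2.244 (0 in all 3) and NOTCH3 at 1.745 (0.236 to 0.287), each a gene that was called much higher with sgKEAP1-1. In sgCtrl replicate 1, MKI67 was at 256.0 (132 to 143), CTSB at 411.7 (519 to 540) and TF at 1892.5 (2558 to 2651). In sgCtrl replicate 4, CREB3L3 was at 20.28 (12.2 to 13.5), CYP4F11 at 8.962 (4.02 to 4.83) and SLC2A3 at 145.5 (222 to 232). In sgCtrl replicate 3, CYP2S1 was at 4.019 (1.52 to 1.75).

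The rows without a gene ID were outside the comparison of genes. Tested on their own with limma-voom, 8 of the 925 such rows that passed the filter were called higher with sgKEAP1-1 and 4 lower, and 122 had an unadjusted p under 0.05.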

How the results depend on the processing

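The count of genes called for sgKEAP1-1 under siNC, 1218, was 766 with the libraries of the compared groups alone and 429 at a log2 fold change of at least 1. Of these the genes higher were 298 at that stricter limit, and the genes lower were 311 with the compared groups alone, 828 with sample quality weights and 131 at the stricter limit. Leaving out 1 library gave 895 to 1284 genes, 515 to 730 higher and 380 to 554 lower. Under siTFEB/siTFE3 there were 1991 with quality weights (1032 higher, 959 lower), 427 at the stricter limit (309 and 118), 821 lower without all libraries numbered 1, an alternative chosen after seeing the data, and 339 to 473 lower without 1 library, the fewest without sgKEAP1-1 replicate 2. The contrast of the guides gave 9 genes with DESeq2, 2 with edgeR, 3 with quality weights and 0 to 1 without 1 library. The interaction gave 0 without any 1 library. The cause of these differences was not tested, beyond the stricter limit and the fewer samples themselves. Of 121 tested genes described in the main text, 110 of the 113 called kept their call under all 16 alternatives, HNF4A, LYZ and SOX9 being the exceptions. The 16 do not include the stricter limit on the fold change. SESN1, named only as a called member of its lists, was not counted among the 113 and lost its call too. Since genes that lost a call were mostly left out of the naming, the fairer figure is that 36 of the 148 called genes of the naming rule lost it under at least 1 alternative. MKI67, not called, changed sign without sgCtrl replicate 1, at 0.0035 (main value -0.22, range over all left-out libraries -0.41 to 0.0035).

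The replicate numbers were tested for pairing between sgCtrl and sgKEAP1-1 under siNC. Deviations of same-numbered libraries from their group means correlated with an r of -0.0655 to 0.1813, and 1 of 4 pairs was over 0.1. The main fit did not pair the samples. The check covered only these groups and cannot exclude an effect shared by same-numbered libraries. Replicate 1 was the lowest of both groups for ALB and AFP, while for TXN it was the highest sgCtrl and the lowest sgKEAP1-1 library. With the replicate number as a block the siNC comparison gave 1454 genes, 786 higher and 668 lower, and the contrast of the guides gave 2. Under the block the lists of cell cycle and ATF4 genes had 11 and 5 members called lower in place of 2 each, and 2 ATF4 and 2 TFEB/TFE3 and nutrient-sensing genes were called higher in place of 0. Glutathione synthesis had 9 higher in place of 5, fatty acid oxidation 5 lower in place of 3 and proteasome genes 5 higher in place of 3.

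The precision is limited by 4 libraries a group of about 4097177 reads each, at which genes with a few reads in sgCtrl have no reliable fold change.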
